A study of Rattus norvegicus and Mus musculus with 18 samples.

Results

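Gene expression was compared between ureteric buds and metanephric mesenchyme of rats at embryonic day E13.5 on the third of 3 rat Affymetrix array designs, called array C here. The comparison comprises 4 of the 18 arrays of the series, chosen by their labels: 2 arrays of ureteric bud RNA and 2 of metanephric mesenchyme RNA, with every probe set of the design considered. About 1200 buds and 240 mesenchymes were pooled to prepare RNA, after enzyme digestion of dissected kidneys for 10 min and separation with pins. No genotype, strain or drug treatment distinguished the tissues, and both went through the same digestion. The 2 arrays of a tissue are repeat labelings of its RNA, each made from 1 ug, so the p-values below measure the spread of labeling and hybridisation and not that between animals or litters. In tissue RNA, fewer cells of a type and less RNA per cell cannot be told apart.

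The ureteric bud is an epithelial outgrowth of the nephric duct that branches to form the collecting ducts, while the mesenchyme around it holds progenitors of the nephrons, the stroma and vessels. Signals pass both ways: Gdnf from the mesenchyme acts on Ret in the bud, and Wnt ligands from the bud act on the mesenchyme. The comparison asks which transcripts were restricted to either tissue just after the first branching of the bud.

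The array held 8789 probe sets, of which 59 were hybridisation or housekeeping controls. Intensities were quantile-normalised and compared as log2(intensity + 16), which understates the fold of dim probe sets. The 4666 probe sets with a mean of at least 115, the median of the table, in at least 1 tissue were tested with limma, and a probe set was called at a Benjamini-Hochberg adjusted p under 0.05 and a difference of at least 2-fold. All differences are log2 values of bud minus mesenchyme. The labelings of the bud correlated at r = 0.982 and those of the mesenchyme at r = 0.993 across probe sets, against 0.941 to 0.962 between tissues. The 3′ to 5′ signal ratio of the Gapdh control, a sign of RNA or target shortening, was 1.38 and 4.26 on the bud arrays, against 1.27 on each mesenchyme array. That of the beta-actin control was 1.75 and 3.24 on the bud arrays, against 1.52 and 1.37 on the mesenchyme arrays. Bud labeling 2 thus stood apart in this measure, and each result is also given with bud labeling 1 alone where that ended a call.

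Of the tested probe sets, 216 were called, 4.63% of those tested, with 104 higher (2.23%) and 112 lower (2.4%) in bud. A single gene symbol was listed for 5821 probe sets, several symbols for 45 and none for 2864. Taking the brightest probe set of each gene, 3159 genes were tested and 126 called (3.99%), of which 70 were higher in bud (2.22%) and 56 lower (1.77%). The bud and mesenchyme arrays did not overlap for any of the 126, as for 62.6% of all tested genes, with both bud arrays higher for 33% and lower for 29.6%. Of these genes 15 were at least 4-fold higher in bud and 13 at least 4-fold lower, and 5 and 2 passed 8-fold. The median difference of all tested genes was 0.01. With bud labeling 1 alone, 115 of the 126 remained at least 2-fold apart and 113 remained called, where 4.20% of genes were called in all. The 13 genes that lost the call were Ssx2ip, Col18a1, Rgmb, Cdca7l, Bmt2, Esf1, Sat1 and Nedd9 among those higher in bud, and Tcf25, Tmpo, Ptov1, Map1lc3a and Ube2s among those lower, with differences of 0.76 to 1.13 in size with bud labeling 1 alone. Rgmb and Nedd9 no longer reached the filter, and Nedd9 also fell below 2-fold (0.94).

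**Figure D1:**
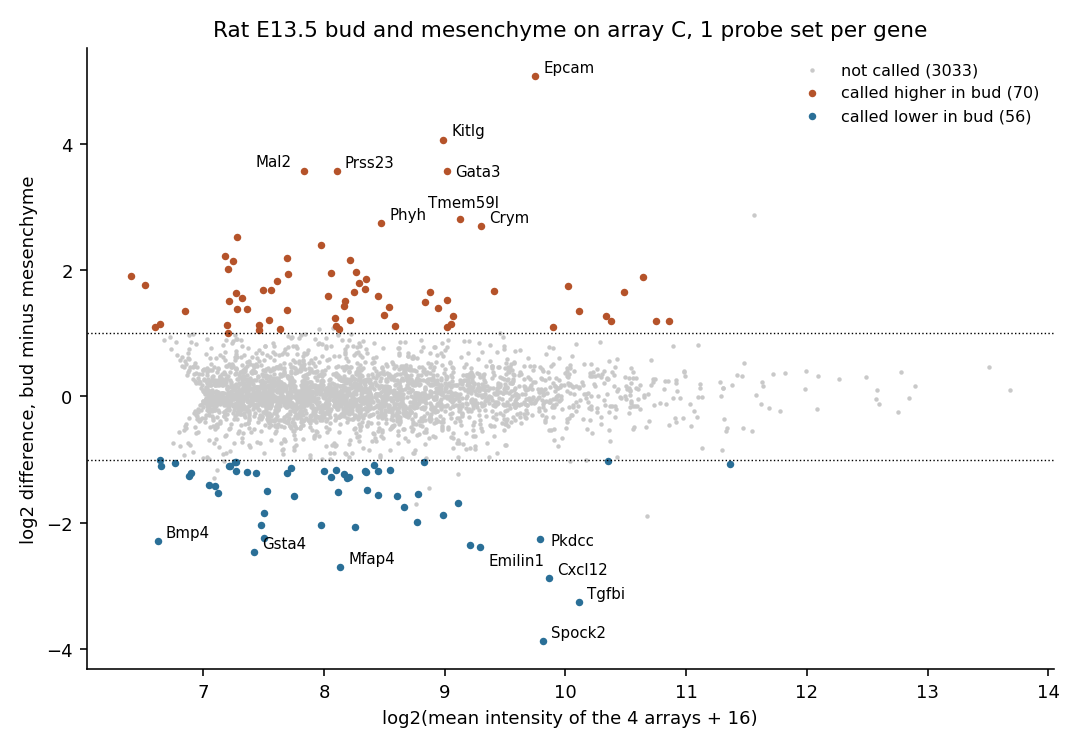
Log2 difference of bud minus mesenchyme (vertical axis) against the log2 mean intensity of the 4 arrays (horizontal axis) for 3159 tested genes, with 70 genes called higher in bud in orange and 56 called lower in blue; dotted lines mark 2-fold. Epcam at 5.07 and Spock2 at -3.87 mark the ends, and called genes lie at low and high intensity alike.

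Epithelial adhesion and polarity genes included the gene with the largest difference on the array. Epcam, a homophilic adhesion molecule of epithelia, had intensities of 1683 and 1628 in bud, against 33.1 and 34.4 in mesenchyme. The bud arrays were far above the mesenchyme arrays, with a log2 difference of 5.07 (SE 0.10, limma adjusted p = 0.000121). Of the 15 tested members of the list of epithelial junction and polarity genes, 5 were called higher in bud and none lower. The list median was 0.27. Over all tested genes 2.22% were called higher in bud and 1.77% lower. Besides Epcam these were Ppl, a plakin that links desmosomes to filaments, Crb3 and Pard6b, which build the apical polarity complexes, and F11r, a tight junction adhesion molecule. Ppl had 239.8 and 205.7 in bud, against 40.3 and 30.2 in mesenchyme, a difference of 2.22 (SE 0.16, adjusted p = 0.00177). Crb3 stood at 241.0 and 195.2 in bud, against 66.1 and 51.6 in mesenchyme (difference 1.65, adjusted p = 0.00461). F11r showed 740.7 and 763.1 in bud, against 267.6 and 234.5 in mesenchyme (difference 1.53, adjusted p = 0.00216). The arrays of the tissues did not overlap for these genes, as for all 126 called genes. A second probe set of F11r differed by only 0.19 (adjusted p = 0.792), with 630.8 and 244.0 in bud, against 367.5 and 322.5 in mesenchyme, so the probe sets of this gene disagree and its bud labelings disagree on the second. Pard6b differed by 1.41 (adjusted p = 0.00902). Crb3 and Pard6b lost the call without mesenchyme labeling 1 (adjusted p = 0.0502 and 0.0760), and Crb3 also without mesenchyme labeling 2 (0.0561). The junction members that did not pass included the bright alpha-catenin gene Ctnna1, at 2627 and 2942 in bud, against 1496 and 1663 in mesenchyme, a difference of 0.81, and Pard3, at 443.7 and 740.9 in bud, against 486.2 and 494.8 in mesenchyme.

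Genes of the bud and nephric duct were sparsely covered: 5 list members were tested, and 2 were called higher in bud, beside 2.22% of all tested genes. Gata3, a zinc finger factor needed for the nephric duct and bud, had 907.0 and 979.1 in bud, against 61.0 and 67.8 in mesenchyme, a difference of 3.58 (SE 0.11, adjusted p = 0.000254). Mal2, a membrane protein of transport to the apical surface, had 403.2 and 405.7 in bud, against 17.8 and 20.8 in mesenchyme, a difference of 3.57 (SE 0.11, adjusted p = 0.000273). Both genes were below the median of the table (115) in mesenchyme and above it in bud. Wnt9b, the bud signal that induces nephrons, had 300.8 and 306.4 in bud, against 181.0 and 144.4 in mesenchyme. Its difference of 0.85 (adjusted p = 0.0186) stayed below 2-fold, though its arrays did not overlap, as for 62.6% of all tested genes. Etv5, a factor downstream of Ret, had 663.2 and 411.6 in bud, against 379.8 and 368.3 in mesenchyme, and did not pass (adjusted p = 0.254). Of the 20 markers listed for bud epithelium 4 were on the array, and their summed intensity was 2691 and 2710 in bud, against 168.3 and 168.8 in mesenchyme. The other 2 of these, Krt19 and Calb1, were too dim in both tissues to be tested. On another rat design with the same RNAs, design B, Krt19 was tested and not called, at -0.11 (limma adjusted p = 0.631). On the first rat design Epcam was called at 4.32, while Gata3 differed by 0.02.

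**Figure D2:**
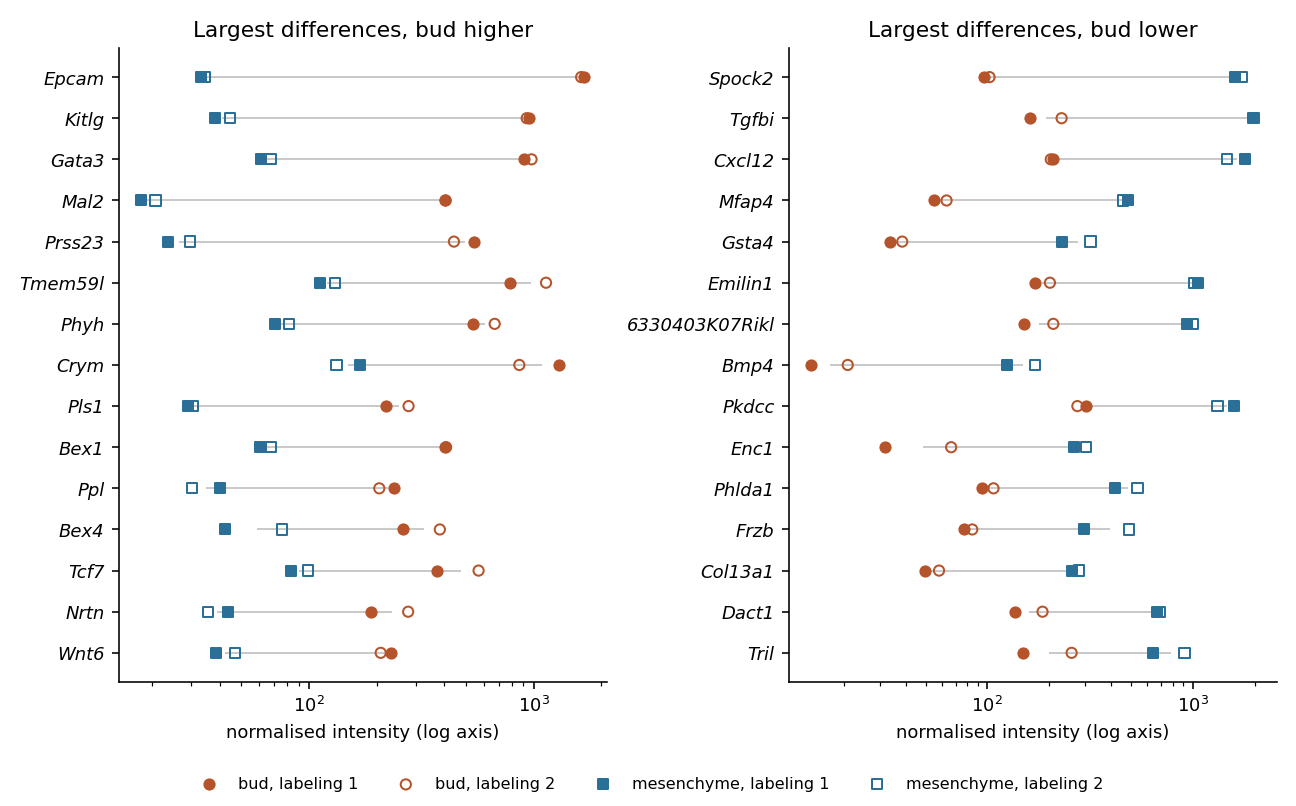
Normalised intensity of each array (horizontal log axis) for the 15 called genes with the largest positive and the 15 with the largest negative difference that also differed by 2-fold with bud labeling 1 alone; circles are bud, squares mesenchyme, filled symbols labeling 1 and open symbols labeling 2, and grey lines join the tissue means. Circles and squares are separate in each row because the genes were also chosen for arrays that did not overlap between tissues. The bud labelings of Enc1 (31.6 and 66.7) lie farther apart than those of Spock2 (96.0 and 102.5).

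Among secreted signals and their receptors, Kitlg, the ligand of the receptor Kit, showed the second largest difference on the array. Kitlg had 953.2 and 931.8 in bud, against 38.2 and 44.5 in mesenchyme, a difference of 4.06 (SE 0.11, adjusted p = 0.000220). It was the only one of 23 tested receptor tyrosine kinase pathway genes called higher in bud, beside 2.22% of all tested genes. Fgfr1, a fibroblast growth factor receptor used by nephron progenitors, fell in bud, with 192.9 and 150.0 in bud, against 609.7 and 605.6 in mesenchyme (difference -1.74, adjusted p = 0.00266). Lrig3, a membrane protein that restrains growth factor receptors, fell too, at 92.3 and 126.9 in bud, against 264.0 and 282.5 in mesenchyme (difference -1.22, adjusted p = 0.0108). The other fibroblast growth factor receptors on the array did not pass: Fgfr2 differed by -0.15 and Fgfr4 by 0.77, the second with 567.8 and 708.2 in bud, against 337.4 and 392.8 in mesenchyme. Nrtn encodes neurturin, a ligand of the Gdnf family. It had 189.3 and 276.5 in bud, against 43.4 and 35.5 in mesenchyme, a difference of 2.15 (SE 0.20, adjusted p = 0.00420), and the bud arrays lay well above the mesenchyme arrays. Nrtn lost the call without mesenchyme labeling 1 or 2 (differences 2.25 and 2.04), and so did Lrig3 (-1.26 and -1.17). Fgfr1 lost it without mesenchyme labeling 1 (difference -1.74).

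Of 20 tested Wnt ligands, receptors and feedback genes, 4 were called higher in bud and none lower, with a list median of 0.14. Among all tested genes 2.22% were called higher and 1.77% lower. Tcf7, a DNA-binding partner of beta-catenin, had 373.3 and 568.9 in bud, against 82.8 and 99.0 in mesenchyme, a difference of 2.16 (SE 0.21, adjusted p = 0.00495). Wnt6, a ligand made by epithelia, had 232.9 and 208.7 in bud, against 38.4 and 46.9 in mesenchyme, a difference of 2.02 (SE 0.13, adjusted p = 0.00165). Celsr1, an atypical cadherin of planar polarity, and Wls, which carries Wnt proteins to the cell surface, differed by 1.83 (adjusted p = 0.00116) and 1.70 (adjusted p = 0.00177). Celsr1 stood at 293.4 and 284.5 in bud, against 72.0 and 67.3 in mesenchyme. Wls stood at 470.0 and 486.2 in bud, against 124.7 and 149.2 in mesenchyme. Bud arrays were above mesenchyme arrays for all 4 of these genes, as for every gene called higher in bud and 33% of all tested genes. Tcf7 lost the call without mesenchyme labeling 1 or 2 (adjusted p = 0.0809 and 0.0561), and the mean over the probe sets of Wls, of which the second is dim, fell to a difference of 0.90. Members that did not pass included Lef1, another beta-catenin partner, at 0.06, and Wnt4, which drives the mesenchyme to form epithelium, at -0.26. Among inhibitors of the pathway outside that list, Frzb, a secreted Wnt antagonist, and Dact1, which binds Dishevelled, fell in bud. Frzb had 76.7 and 84.4 in bud, against 294.2 and 489.3 in mesenchyme, a difference of -2.04 (SE 0.24, adjusted p = 0.00814), and its second probe set differed by -2.21. Dact1 had 136.9 and 185.7 in bud, against 669.0 and 693.7 in mesenchyme, a difference of -1.99 (SE 0.16, adjusted p = 0.00251; 0.0543 without mesenchyme labeling 1).

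Genes of other roles filled out the top of the bud group. Prss23, a secreted serine protease, had 542.2 and 442.0 in bud, against 23.7 and 29.5 in mesenchyme, a difference of 3.57 (SE 0.15, adjusted p = 0.000541). Tmem59l, a membrane protein of the secretory pathway, had 787.7 and 1136 in bud, against 112.5 and 130.4 in mesenchyme (difference 2.81, adjusted p = 0.00177). Phyh, a peroxisomal enzyme that oxidises branched fatty acids, had 535.3 and 671.0 in bud, against 70.6 and 81.5 in mesenchyme (difference 2.74, adjusted p = 0.00116). These 3 genes were over 6-fold apart, and the bud labelings of Tmem59l were farther from each other than those of Prss23 and Phyh. Pls1, an actin bundler of microvilli, had 220.4 and 277.6 in bud, against 29.0 and 30.5 in mesenchyme (difference 2.52, adjusted p = 0.00122). The X-linked genes Bex1 and Bex4, which encode small adaptor proteins, differed by 2.40 (adjusted p = 0.000541) and 2.18 (adjusted p = 0.00996). Bex4 stood at 262.7 and 382.6 in bud, against 42.5 and 76.0 in mesenchyme, and lost the call without mesenchyme labeling 1 (adjusted p = 0.0810).

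Of the 30 genes with the largest differences, 22 had a promoter window in the RefSeq table, and the 2 highest and the 2 lowest of these in bud are shown because these genes mark the ends of the comparison. Each runs from 250 bases before to 50 after the annotated start on the GRCr8 assembly, 5′ to 3′ along the gene's strand, and capitals mark the E-box CACCTG or its complement CAGGTG. Epcam lies at chr6:12649629-12649928 on the minus strand, Kitlg at chr7:36782410-36782709 on the plus strand, Spock2 at chr20:28580012-28580311 on the plus strand and Tgfbi at chr17:7990064-7990363 on the minus strand.
Epcam: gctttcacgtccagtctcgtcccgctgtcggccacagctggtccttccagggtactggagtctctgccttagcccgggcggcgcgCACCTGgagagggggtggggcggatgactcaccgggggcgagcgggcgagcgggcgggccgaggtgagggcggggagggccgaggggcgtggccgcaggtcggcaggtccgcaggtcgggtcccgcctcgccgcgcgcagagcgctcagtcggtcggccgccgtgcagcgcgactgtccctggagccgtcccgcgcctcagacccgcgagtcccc
Kitlg: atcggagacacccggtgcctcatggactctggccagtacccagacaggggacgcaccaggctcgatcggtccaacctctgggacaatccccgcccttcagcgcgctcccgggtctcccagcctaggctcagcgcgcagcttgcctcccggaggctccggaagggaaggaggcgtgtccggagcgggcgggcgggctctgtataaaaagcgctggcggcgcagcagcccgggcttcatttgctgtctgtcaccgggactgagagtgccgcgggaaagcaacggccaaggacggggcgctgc
Spock2: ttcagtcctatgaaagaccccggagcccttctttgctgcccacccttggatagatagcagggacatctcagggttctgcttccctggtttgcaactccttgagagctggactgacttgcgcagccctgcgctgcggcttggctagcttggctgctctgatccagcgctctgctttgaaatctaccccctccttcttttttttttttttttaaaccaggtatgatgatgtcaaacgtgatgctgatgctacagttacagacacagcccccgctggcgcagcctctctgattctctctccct
Tgfbi: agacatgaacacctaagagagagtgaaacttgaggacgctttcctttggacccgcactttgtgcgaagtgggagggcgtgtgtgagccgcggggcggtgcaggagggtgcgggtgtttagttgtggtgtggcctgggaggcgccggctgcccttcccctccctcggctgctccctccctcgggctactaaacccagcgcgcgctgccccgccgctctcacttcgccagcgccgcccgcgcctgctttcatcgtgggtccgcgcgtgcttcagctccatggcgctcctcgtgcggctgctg
The Epcam window held 1 such E-box and the other 3 windows none. Searched on both strands among 57 genes called higher in bud that had a window, 29.8% held CACCTG, against 13.6% of 44 called lower, 15.8% of 2663 tested genes and 18.7% of all 27457 rat windows. The GC box GGGCGG occurred 4 times in the Epcam window, 3 times in that of Kitlg, 2 times in that of Tgfbi and not in that of Spock2. It was in 75.4% of the windows of genes called higher, 63.6% of those called lower and 67.6% of those tested, against 34.9% of all windows. TATAAA was in 7.02%, 4.55%, 6.61% and 14.3% of the same sets, and the GATA-type string AGATAA in 7.02%, 4.55%, 4.88% and 11.3%. None of these strings contains another. A match describes the letters only.

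On the mesenchyme side, stromal and interstitial genes formed the list with the most calls. Of 24 tested members 9 were called lower in bud and none higher, with a list median of -0.57. Of all tested genes 1.77% were called lower. Tgfbi, a secreted matrix protein, had 162.0 and 229.9 in bud, against 1997 and 1966 in mesenchyme, a difference of -3.25 (SE 0.18, adjusted p = 0.00116). Cxcl12, a chemokine of stromal cells, had 208.7 and 203.6 in bud, against 1789 and 1465 in mesenchyme, a difference of -2.88 (SE 0.14, adjusted p = 0.000881). The bud arrays of both genes lay far below the mesenchyme arrays, and the second probe set of Cxcl12 was also called, at -1.92. Mfap4, a microfibril glycoprotein, had 54.8 and 63.3 in bud, against 483.6 and 458.5 in mesenchyme (difference -2.70, adjusted p = 0.000541). Emilin1, found where elastin meets microfibrils, had 170.4 and 201.7 in bud, against 1062 and 1014 in mesenchyme (difference -2.39, adjusted p = 0.00112). Igfbp5, which binds insulin-like growth factors, differed by -1.69, the fibrillar collagen gene Col5a2 by -1.53, the basement membrane genes Nid1 and Nid2 by -1.41 and -1.17, and Sparc, a collagen-binding matrix protein, by -1.09. The brightest stromal members did not pass: Col1a2 had 1396 and 1122 in bud, against 1739 and 1766 in mesenchyme (difference -0.48), and Mfap2 1242 and 1529 in bud, against 1331 and 1438 in mesenchyme. Of the 12 listed stroma markers 5 were on the array and none was called, and Col3a1 came nearest at -0.93 (adjusted p = 0.00951). The first rat design has other probe sets for these genes. There Col1a2 differed by -2.01 (adjusted p = 0.000407), Col3a1 by -1.91 (adjusted p = 0.000310) and the receptor gene Pdgfra by -1.92 (adjusted p = 0.000563). All 3 were called there, while Pdgfrb and Dcn were not. Of the genes called on array C, Col5a2 was called there at -2.58. Igfbp5 at -0.54 (limma adjusted p = 0.104) and Sparc at -0.35 (0.242) were not. Another probe set of Sparc on array C differed by -0.83 and was not called (limma adjusted p = 0.0712). Without mesenchyme labeling 1 or 2, Col5a2 (adjusted p = 0.0607 and 0.0631), Nid1 (0.0789 and 0.0527), Nid2 (0.146 and 0.128) and Sparc (0.0652 and 0.0848) lost their calls, and Nid2 fell below 2-fold without bud labeling 1 (-0.96).

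**Figure D3:**
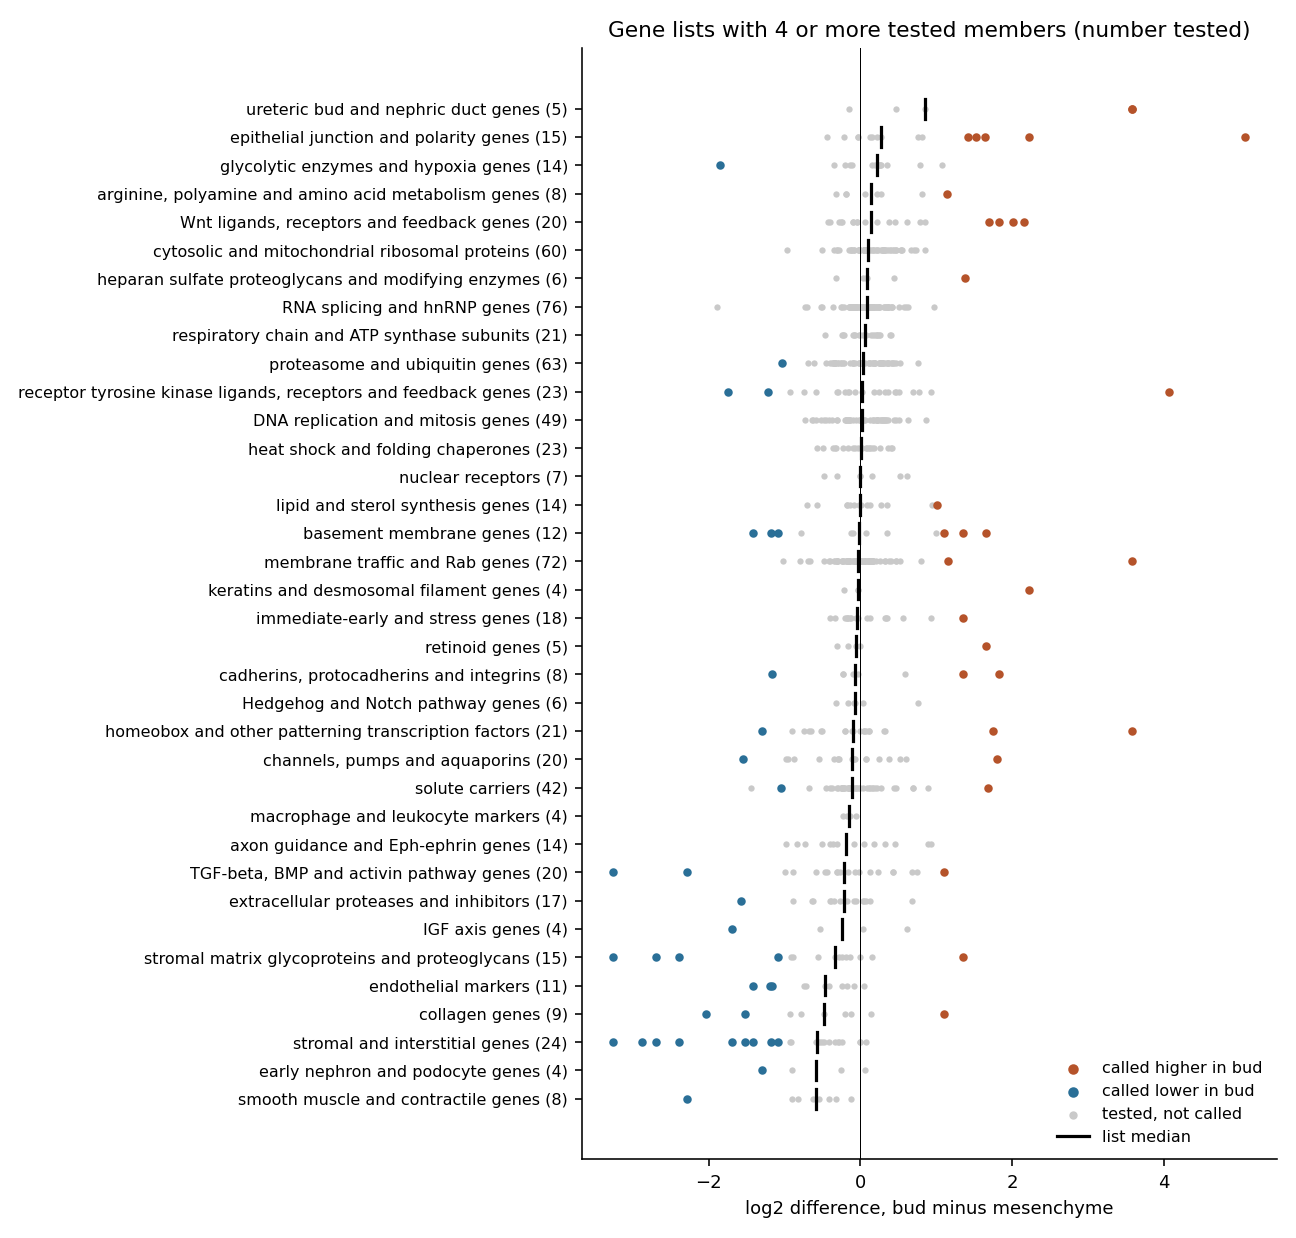
Log2 differences of bud minus mesenchyme (horizontal axis) of the tested members of each gene list with at least 4 tested members, sorted by list median (black bars); orange and blue points are members called higher and lower in bud, grey points members not called. The stromal list (24 tested, median -0.57) holds 9 blue points and the ribosomal list (60 tested, median 0.10) none.

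Markers of nephron progenitors were largely outside the design: none of the 12 listed markers, which include Six2 and Cited1, had a probe set here, so the mesenchyme label could not be checked against them. Of the wider list of progenitor genes 3 were tested and all were called, Crym higher in bud, and Spock2 and Fgfr1 (-1.74, as above) lower. The shares over all tested genes were 2.22% higher and 1.77% lower. Spock2, a secreted proteoglycan of the testican family, had 96.0 and 102.5 in bud, against 1600 and 1739 in mesenchyme, the largest fall on the array at -3.87 (SE 0.11, adjusted p = 0.000244). Its second probe set was called as well, at -1.55. Crym, a cytosolic thyroid hormone binding protein, went the other way, with 1291 and 863.6 in bud, against 168.9 and 132.7 in mesenchyme (difference 2.69, SE 0.23, adjusted p = 0.00281). From the separate list of early nephron and podocyte genes, Foxc2, a forkhead factor, had 185.0 and 125.3 in bud, against 423.9 and 371.2 in mesenchyme. It differed by -1.29 (limma adjusted p = 0.0166). Foxc2 lost the call without mesenchyme labeling 1 or 2 (differences -1.20 and -1.38). On the first rat design and design B, with the same RNAs, Foxc2 was called at -2.12 and -3.15 (limma adjusted p = 0.000491 and 0.000158). Its relative Foxc1 stayed below 2-fold at -0.90 (adjusted p = 0.0144).

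Of 20 tested TGF-beta, BMP and activin pathway genes, Tgfbi and Bmp4 were called lower in bud and Rgmb higher. The list median was -0.21. The shares over all tested genes were 1.77% lower and 2.22% higher. Bmp4, a ligand of the mesenchyme around the bud stalk, had 13.8 and 20.9 in bud, against 125.2 and 170.4 in mesenchyme, a difference of -2.29 (SE 0.21, adjusted p = 0.00383). Its intensities were low in bud, and it lost the call without mesenchyme labeling 2 (adjusted p = 0.0922). Rgmb, a BMP co-receptor, had 112.1 and 119.9 in bud, against 47.2 and 43.9 in mesenchyme (difference 1.10, adjusted p = 0.00797; 0.0930 and 0.112 without mesenchyme labeling 1 or 2), and was below the filter with bud labeling 1 alone (difference 1.06). The signal transducer gene Smad3 (difference -0.58), the receptor gene Tgfbr1 (0.24) and the corepressor genes Skil (-0.02) and Tgif1 (0.74) did not pass. Other genes with the largest falls included Gsta4, a glutathione transferase that detoxifies lipid aldehydes, at 33.4 and 38.5 in bud, against 229.9 and 318.2 in mesenchyme (difference -2.47, adjusted p = 0.00194). Pkdcc, a secreted kinase, had 303.1 and 274.5 in bud, against 1583 and 1320 in mesenchyme (difference -2.26, adjusted p = 0.00128). Phlda1, a pleckstrin homology-like protein, had 94.4 and 107.2 in bud, against 417.2 and 539.0 in mesenchyme (difference -2.07, adjusted p = 0.00197). The arrays of the tissues were apart for these 3 genes, as for every called gene. Enc1, an actin-binding kelch protein, differed by -2.25 (adjusted p = 0.00884) and Tril, a Toll-like receptor accessory protein, by -1.88 (adjusted p = 0.0186). Without mesenchyme labeling 1 or 2 these were lost (adjusted p = 0.102 and 0.105 for Enc1, 0.102 and 0.135 for Tril).

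Of 11 tested endothelial markers 3 were called lower in bud and none higher, with a list median of -0.47. Of all tested genes 1.77% were called lower. Cdh5, the cadherin of vessels, had 153.9 and 153.5 in bud, against 353.5 and 374.9 in mesenchyme (difference -1.16, adjusted p = 0.00281). Emcn, a sialomucin of capillaries, had 60.0 and 56.9 in bud, against 193.7 and 171.6 in mesenchyme (difference -1.41, adjusted p = 0.00281), and Fli1, an ETS factor, differed by -1.19 (adjusted p = 0.00315). All 3 lost the call without mesenchyme labeling 1 or 2, with adjusted p between 0.0561 and 0.0782. Of the 8 defining endothelial markers 3 were on the array, and their summed intensity was 311.8 and 308.7 in bud, against 654.4 and 654.3 in mesenchyme. Summed macrophage markers (4 of 8 on the array) were 316.5 and 371.9 in bud, against 416.1 and 378.7 in mesenchyme, with Ptprc below 10 on every array, and none was called. Summed neuronal markers (3 of 7) were 125.6 and 129.3 in bud, against 142.9 and 143.5 in mesenchyme, and summed smooth muscle markers (2 of 6) 210.0 and 171.0 in bud, against 287.3 and 255.3 in mesenchyme. The only erythroid marker on the array, Epor, was between 48.1 and 59.1 on all 4 arrays. The part of vessel cells in the genes lower in bud was not tested.

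Of 12 tested basement membrane genes 3 were called higher and 3 lower in bud, with a list median of -0.01. Among all tested genes 2.22% were called higher and 1.77% lower. Lamc1, the laminin gamma chain of most basement membranes, had 1776 and 2546 in bud, against 629.7 and 703.0 in mesenchyme (difference 1.65, adjusted p = 0.00883). Itga6, a laminin receptor subunit, had 169.3 and 130.2 in bud, against 49.0 and 47.7 in mesenchyme (difference 1.36, adjusted p = 0.00776). Col18a1, the collagen that yields endostatin, had 1114 and 1465 in bud, against 566.1 and 609.6 in mesenchyme (difference 1.10, adjusted p = 0.0171), and 0.90 with bud labeling 1 alone. The nidogens Nid1 and Nid2 and Sparc lay on the mesenchyme side, as above. Dag1, dystroglycan, another laminin receptor, ended just short of 2-fold at 1.00 (adjusted p = 0.00902), and Col4a1 differed by -0.78 (adjusted p = 0.0127). Col13a1, a transmembrane collagen, fell in bud, with 49.5 and 58.2 in bud, against 259.7 and 279.8 in mesenchyme (difference -2.03, adjusted p = 0.00122). Gpc4, a glypican, rose by 1.38 (adjusted p = 0.00207), Ccn1, a matricellular protein, by 1.35 (adjusted p = 0.00503), and Reck, an inhibitor of matrix proteases, fell by 1.58 on the log2 scale (adjusted p = 0.00251). Without mesenchyme labeling 1 or 2, Lamc1 (adjusted p = 0.118 and 0.0882), Itga6 (0.0994 and 0.0962), Col18a1 (0.177 and 0.130) and Ccn1 (0.0796 and 0.0514) lost the call, and Reck without mesenchyme labeling 1 (0.0607).

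Among 21 tested homeobox and patterning factors, Gata3 and Hoxd9 were called higher and Foxc2 lower in bud. Beside this and the counts that follow, 2.22% of all tested genes were called higher and 1.77% lower. Hoxd9, a posterior Hox factor, had 1361 and 1815 in bud, against 456.0 and 455.1 in mesenchyme (difference 1.75, adjusted p = 0.00435; 0.0787 and 0.0651 without mesenchyme labeling 1 or 2). Of 5 retinoid genes only Rdh10, which oxidises retinol in the first step of retinoic acid synthesis, passed. It had 726.3 and 673.3 in bud, against 195.4 and 226.9 in mesenchyme (difference 1.66, adjusted p = 0.00197), while a second, dim probe set differed by 0.02. Atp1b1, the beta subunit of the sodium pump, had 521.0 and 421.7 in bud, against 116.9 and 130.2 in mesenchyme (difference 1.80, adjusted p = 0.00220; 0.0544 without mesenchyme labeling 1). Fxyd6, a small pump regulator, had 193.1 and 222.8 in bud, against 682.5 and 596.0 in mesenchyme (difference -1.55, adjusted p = 0.00281; 0.0585 without mesenchyme labeling 1). Bud and mesenchyme arrays were apart for each of these genes, as for every called gene. Of 42 tested solute carriers, the choline transporter gene Slc44a1 rose by 1.69 (adjusted p = 0.00132), or by 0.98 as the mean of its 3 probe sets, and the cationic amino acid exchanger subunit Slc7a7 fell by 1.04 on the log2 scale (adjusted p = 0.0111; 0.138 and 0.132 without mesenchyme labeling 1 or 2). Epas1, the hypoxia-inducible factor of vessels, had 64.5 and 60.8 in bud, against 286.6 and 250.2 in mesenchyme, and was the only call among 14 glycolytic and hypoxia genes (difference -1.85, adjusted p = 0.00132).

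None of 60 tested ribosomal protein genes, 21 respiratory chain subunits, 76 splicing genes, 49 replication and mitosis genes or 23 heat shock and folding genes was called by limma, with list medians of 0.10, 0.06, 0.08, 0.02 and 0.01. At an unadjusted p under 0.05 the counts were 18, 0, 15, 15 and 5, where 29.3% of all tested genes were under it. Of 63 tested proteasome and ubiquitin genes 1 was called, Ube2s, a ubiquitin-conjugating enzyme, which fell in bud by 1.03 on the log2 scale (adjusted p = 0.0426) and lost the call with bud labeling 1 alone (difference -0.76, adjusted p = 0.0536) and without mesenchyme labeling 1 or 2 (0.284 and 0.173). None of 14 axon guidance genes passed both thresholds, and Slit2, a Robo ligand, came near with 626.9 and 700.5 in bud, against 330.7 and 367.6 in mesenchyme (difference 0.90, adjusted p = 0.0124). None of 6 Hedgehog and Notch genes or 7 nuclear receptors was called either. At an unadjusted limma p under 0.05 were 1 of these 6, 4 of these 7 and 8 of the 14 axon guidance genes, beside 29.3% of all tested genes. The share called over all tested genes was 3.99%, so no call among 6, 7 or 14 genes does not set these lists apart.

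Large tissue differences that missed the test mostly had bud labelings far apart, which follows largely from a test against the spread of labelings. The log2 differences between the bud labelings had an SD of 0.325, against 0.205 between the mesenchyme labelings. The bud labelings were 2-fold or more apart for 60 tested probe sets (1.29%), 52 of them lower in labeling 2, and the mesenchyme labelings for 20 (0.429%). Of 30 tested probe sets at least 2-fold apart between tissues that missed the adjusted p, 26 had bud labelings 2-fold apart. Hnrnpf, an RNA-binding splicing factor, had 1707 and 205.7 in bud, against 2319 and 2237 in mesenchyme (difference -1.89, adjusted p = 0.250), and differed by -0.41 with bud labeling 1 alone. All 3 probe sets of Raly, another RNA-binding protein, behaved alike, the brightest with 1259 and 391.8 in bud, against 1564 and 1325 in mesenchyme. In the other direction a probe set of Cr1l, a complement regulator, had 641.8 and 10723 in bud, against 339.0 and 358.3 in mesenchyme, and Rab1b, a small GTPase of transport, 841.8 and 4454 in bud, against 1084 and 1142 in mesenchyme. Hnrnpf, Raly and Cr1l were named after their values were seen.

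**Figure D4:**
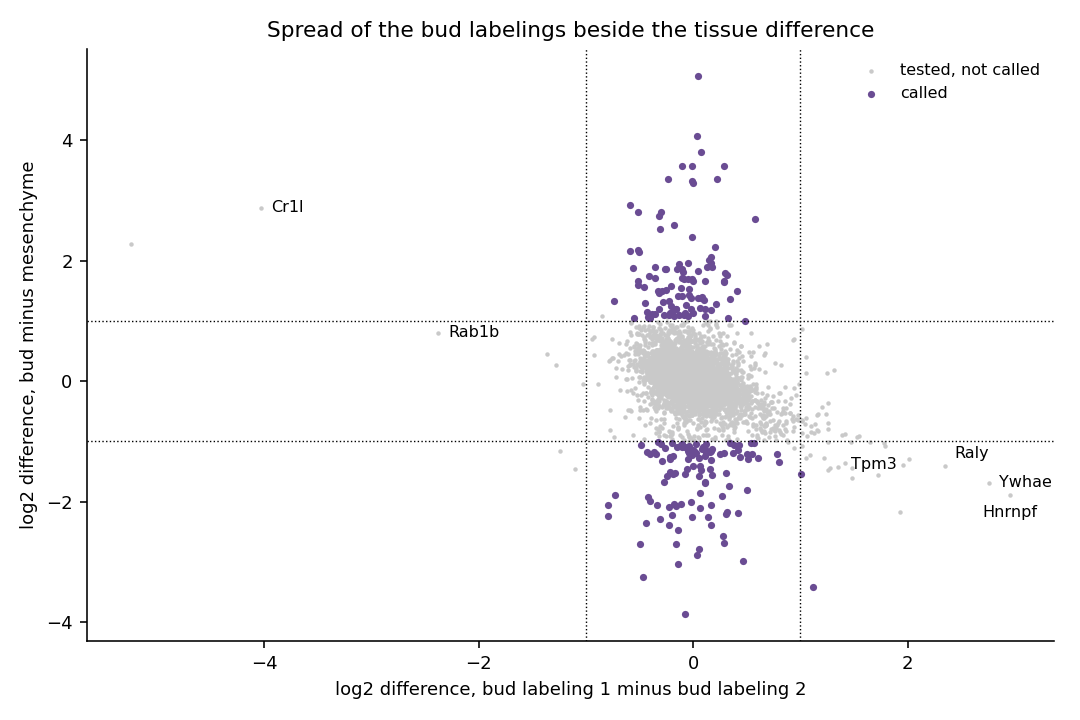
Log2 difference of bud labeling 1 minus labeling 2 (horizontal axis) and of bud minus mesenchyme (vertical axis) for the 4666 tested probe sets, with the 216 called in purple; dotted lines mark 2-fold. All but 2 called probe sets lie within 2-fold on the horizontal axis, which follows largely from a test against the spread of labelings. A tail on the right, with Hnrnpf and Ywhae, is lower in bud labeling 2.

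Several probe sets stood for some genes. Of the 126 called genes 29 had more than 1 probe set and 15 more than 1 that was tested. In 6 of these 15 every tested probe set was called, among them Spock2, Cxcl12 and Frzb, and in 9 at least 1 was not, among them F11r and Slc44a1. The other probe sets of Slc44a1 differed by 0.92 (tested, not called) and by 0.32 (below the filter). Other probe sets below the filter differed by 0.08 for Itga6, -0.35 for Lrig3, 0.02 for Rdh10, and -1.18 and 0.04 for Enc1. A further 57 called probe sets had no single symbol, 30 higher and 27 lower in bud.

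The same RNAs were also hybridised to the first rat design and to design B, whose probe sets differ, and these values share their tissue pools with array C. Epcam differed by 4.32 on the first design, Spock2 by -2.18, Fgfr1 by -2.58, Col5a2 by -2.58 and Atp1b1 by 2.16, and each was called there. On design B, Phyh differed by 3.05, Bex1 by 2.56, Bex4 by 2.55, Cdh5 by -2.32 and Rdh10 by 2.13, again all called. Lamc1 was called on design B at 1.69 and not on the first design at 0.32, and the first design's probe set of Rdh10 was likewise not called, at 0.57 (adjusted p = 0.168). Gata3 had 210.8 and 199.8 in bud, against 201.6 and 202.6 in mesenchyme, on the first design, a difference of 0.02 beside 3.58 on array C. Hoxd9 likewise differed by -0.08 on design B beside 1.75 on array C. Epas1 on design B had 399.4 and 384.1 in bud, against 380.6 and 346.6 in mesenchyme (difference 0.10, adjusted p = 0.541), beside -1.85 on array C. Kitlg on the first design and Cxcl12 on design B were below the filter, at 85.4 and 36.5 in bud, against 35.5 and 40.0 in mesenchyme, for Kitlg, and below 10 on all 4 arrays for Cxcl12. On the other designs 5.80% of genes on the first and 5.42% on design B were called in either direction.

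Mouse E12.5 buds, dissected into tips and stalks, and mouse mesenchyme were measured in 6 other arrays, which gives the same contrast in RNA that the rat lists did not use. Genes were matched by symbol, and the mouse difference is the mean of tip and stalk minus mesenchyme. Of 60 genes higher in rat bud that were tested in mouse, 26 were also called higher there (43.3%, where 2.38% of genes tested in both were called higher in mouse) and 3 were called lower. Of 51 genes lower in rat bud, 19 were called lower in mouse (37.3%, against a background of 1.55%) and none higher. Epcam differed by 4.65 in mouse, Mal2 by 4.69 and Gata3 by 3.29, beside 5.07, 3.57 and 3.58 in rat. Mpzl2, an epithelial adhesion protein named after its values were seen, differed by 3.66 in mouse and was called in both species. Spock2 differed by -1.76 in mouse and Tgfbi by -1.97. For several genes lower in rat bud the mouse difference lay in the tips: Tgfbi was -3.53 in tips and -0.42 in stalks, Cxcl12 -2.86 and -0.35, Foxc2 -2.71 and -0.21, and Bmp4 -1.48 and 0.93, with 174.3 and 190.0 in tips and 1033 and 1046 in stalks, against 540.1 and 532.3 in mesenchyme. With mouse tips alone 66.7% of the genes lower in rat bud were called lower (background 3.89%), and with stalks alone 5.88% (background 0.252%). The shares for the genes higher in rat bud were 51.7% in tips (background 3.28%) and 30% in stalks (background 1.95%). Phyh and Pls1, both high in rat bud, differed by 0.01 and -0.07 in mouse, and Gsta4, low in rat bud, by 0.29.

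**Figure D5:**
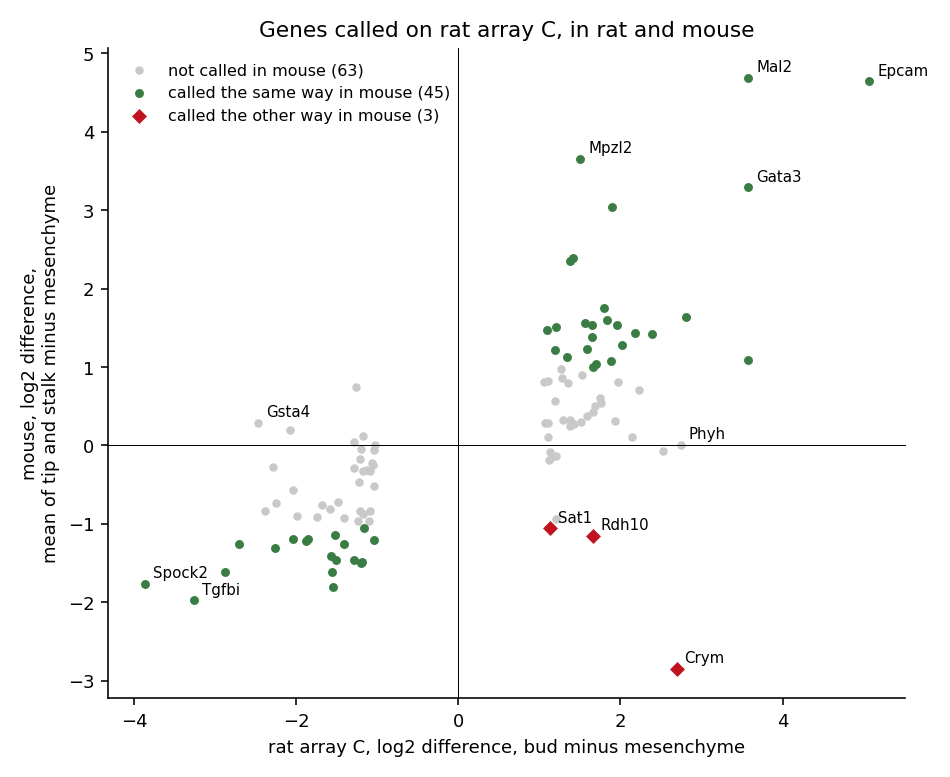
Log2 difference of bud minus mesenchyme in rat on array C (horizontal axis) and in mouse (vertical axis, mean of tip and stalk minus mesenchyme) for the genes called on array C and tested in mouse; green points were called the same way in mouse (45), red diamonds the other way (3) and grey points were not called there (63). Crym, Rdh10 and Sat1 are the red diamonds at the lower right.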

How the data were processed

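Intensities were analysed as deposited by the authors, 1 table per array design, on a linear scale. The method that scaled and summarised the probes is not given in the sources used here. Samples were grouped by title and source label. The 4 columns were quantile-normalised with all probe sets, the 59 controls were left out, and log2(intensity + 16) was fitted with limma 3.58.1 in R 4.3.3 (lmFit, eBayes with intensity trend), with Benjamini-Hochberg adjustment over all tested probe sets. The other rat designs and the mouse arrays were fitted in the same way, each on its own. The fit was tested on simulated data with 200 changed probe sets. Symbols came from the platform annotation, and 5804 of 5821 single-symbol probe sets matched the reference table. The number of arrays limits the precision.

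Alternatives changed the pseudocount, normalisation, filter, variance model, threshold, probe set per gene, labelings used and replicate block. Leading named genes were the 15 called with the largest difference each way among those 2-fold apart with bud labeling 1 alone. Their bud and mesenchyme arrays were also required not to overlap. Also named were called members of the gene lists, up to 4 bright members per list that were not called, and cell type markers. The members and lists were chosen with earlier results of these data known.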

Additional observations from a re-analysis of the deposited data

Results flagged for a closer look

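Rat and mouse buds differed in the direction of 3 genes that were called in both species, and the difference between species was not tested. Crym was higher in rat bud by 2.69, while in mouse it differed by -2.85 (limma adjusted p = 3.5e-07), with 46.6 and 34.4 in tips and 145.7 and 124.8 in stalks, against 631.0 and 661.2 in mesenchyme. All mouse bud arrays were below both mesenchyme arrays. Rdh10 was higher in rat bud by 1.66 (by 2.13 on design B and, not called, by 0.57 on the first rat design), and in mouse differed by -1.15 (adjusted p = 7.9e-08), with 834.6 and 809.8 in tips and 989.5 and 1003 in stalks, against 2022 and 2034 in mesenchyme. Sat1, which acetylates polyamines, was higher in rat bud by 1.14 with 184.4 and 185.2 in bud, against 88.7 and 63.6 in mesenchyme, and in mouse differed by -1.06 (adjusted p = 0.000563). The rat call of Sat1 was lost with bud labeling 1 alone (adjusted p = 0.0508) and without mesenchyme labeling 1 or 2 (0.0552 and 0.0920). The embryonic stages, E13.5 in rat and E12.5 in mouse, and the probe sets differ between the species.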

How the results depend on the processing

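The sign of all 126 called genes was kept under every alternative run. Only another normalisation or the mean of a gene's probe sets could have changed it. The bud and mesenchyme arrays did not overlap for these genes, which fixed the sign under the other alternatives. Leaving out a labeling gave 80 to 360 called probe sets, 44 to 143 higher and 36 to 217 lower, 45 to 200 genes, and 22 to 73 list members; the lone array is then assumed to vary like the other tissue. The highest counts came without bud labeling 1 (200 genes, 117 of the 126 among them) and the lowest without mesenchyme labeling 1 (45) and 2 (54). Testing against a 1.5-fold difference left 124 probe sets, 65 higher and 59 lower, and 74 genes. A pseudocount of 64 left 67 lower probe sets. The labels do not link labeling numbers across tissues; with the number as a replicate block 221 probe sets and 128 genes were called, and the correlation of same-numbered deviations was 0.29. Of the 30 genes with the largest differences, 24 and 25 were called without mesenchyme labeling 1 and 2, and 25 with a filter at the 75th percentile, which the other 5 did not reach. Of 65 named list and leading genes, 12 lost the call with a pseudocount of 64, 16 in the test against 1.5-fold and 6 with the mean of a gene's probe sets. In mouse, 66.7% of the genes lower in rat bud were called in tips alone and 5.88% in stalks alone, and 30% of those higher in stalks alone. The cause of these shifts was not tested. With 2 labelings of 1 RNA pool per tissue, no statement covers variation between animals. Genes dim in 1 tissue, such as Bmp4 in bud, have their fold understated.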

Other observations

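Labeling differences in mesenchyme were not spread evenly over the array. Probe sets named for sequence records beginning with AI179, AI180, AI227 or AI228, separate stretches chosen after the values were seen, numbered 345 among those tested. Of the 20 probe sets with mesenchyme labelings 2-fold apart 19 were among them, each brighter in labeling 2. Of the 345, 67.2% were brighter in mesenchyme labeling 2, against 45.6% of the rest, and the median log2 difference of labeling 1 minus labeling 2 was -0.18 there, against 0.02 elsewhere. The median of bud minus mesenchyme in these stretches was 0.10. Their 15 called probe sets were 4.35% of those tested there, against 4.63% over the whole array. They included those of Enc1, Frzb, Tril, Fxyd6, Nedd9, Map3k1, Stxbp6 and Bex4. Morf4l1, a chromatin protein in those stretches, had 3305 and 3319 in bud, against 1231 and 2698 in mesenchyme. Of the 8 probe sets at least 2-fold brighter in bud labeling 2, 6 were named for records AI177000 to AI178999, a range also chosen after the values were seen. It held 277 tested probe sets, of which 63.5% were brighter in bud labeling 2, against 52.6% of the rest. The cause was not tested.

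Some called genes outside the lists and the leading 15, chosen after their values were seen, may interest kidney biologists. Angpt2, an angiopoietin that acts on vessels, had 300.1 and 329.4 in bud, against 66.3 and 74.3 in mesenchyme (difference 1.94, limma adjusted p = 0.00121), while on the first rat design it differed by 0.50 and in mouse by 0.31, neither called. Mecom, a zinc finger factor, had 1956 and 1683 in bud, against 761.0 and 714.6 in mesenchyme (difference 1.28, adjusted p = 0.00539). Islr, a leucine-rich repeat protein of stromal cells, had 171.5 and 149.8 in bud, against 541.5 and 468.9 in mesenchyme (difference -1.56, adjusted p = 0.00266). In mouse it had 78.7 and 53.1 in tips and 795.2 and 804.5 in stalks, against 741.6 and 801.0 in mesenchyme.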
